A study of Mus musculus with 6 samples.

Results

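The transcription factors of naive pluripotency followed here across 3 mouse embryonic stem (ES) cell lines were Zfp42, Tfcp2l1, Klf2, Klf4, Klf5, Tbx3, Nr0b1, Nr5a2, Prdm14 and Esrrb, 10 of the 19938 genes measured by a probe set with a single gene symbol. A gene with several such probe sets was represented by the one with the highest mean over all arrays, and each of the 10 factors had exactly 1. The lines were ♂M-1, ♂M-3 and ZM-1, labelled as chromosome transfer ES cells, with 2 biological repeats and hence 2 arrays per line. What the prefixes ♂M and ZM stand for is not stated, and no genotype, strain or passage is given in the sources used here. Cells of all 3 lines grew on gelatin in DMEM with LIF, PD0325901, which inhibits MEK, and CHIR99021, which inhibits GSK3β. Each line is a single line, so a difference between lines cannot be told apart from a difference between types of line. Whether the repeats came from separate cultures is not stated beyond the word biological, and p-values measure only the spread between such repeats.

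Naive pluripotency is the state of the early epiblast, which mouse ES cells keep in culture. LIF acts through the kinase JAK and the transcription factor STAT3, and in mouse ES cells it raises Klf4 and Tfcp2l1. Inhibition of GSK3 relieves repression by TCF7L1, which frees Esrrb, Klf2 and Tfcp2l1, while inhibition of MEK blocks the FGF signal that drives cells out of the naive state. Around the core factors POU5F1, SOX2 and NANOG, the naive factors form a network in which several members can stand in for one another. Most of them are lost when cells move to the primed state of the later epiblast, and Zfp42, also known as Rex1, is widely used as a reporter of that exit.

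Promoter windows of 250 bases before the transcript start are shown for the pair of factors that differed most between lines and had an entry, Zfp42 and Tfcp2l1, and for Klf4, whose window held the most motif matches and whose level was not called different. They come from RefSeq for GRCm38.p6, run 5′ to 3′ on the strand of the gene, and carry motif matches in capitals. The Zfp42 window is chr8:43307010-43307259 on the minus strand, the Tfcp2l1 window chr1:118627695-118627944 on the plus strand and the Klf4 window chr4:55532476-55532725 on the minus strand.
Zfp42: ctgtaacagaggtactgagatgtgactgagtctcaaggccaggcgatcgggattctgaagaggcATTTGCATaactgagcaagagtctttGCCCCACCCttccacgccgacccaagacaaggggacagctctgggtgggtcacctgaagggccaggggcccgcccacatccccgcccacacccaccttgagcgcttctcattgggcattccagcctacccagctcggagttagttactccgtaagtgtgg
Tfcp2l1: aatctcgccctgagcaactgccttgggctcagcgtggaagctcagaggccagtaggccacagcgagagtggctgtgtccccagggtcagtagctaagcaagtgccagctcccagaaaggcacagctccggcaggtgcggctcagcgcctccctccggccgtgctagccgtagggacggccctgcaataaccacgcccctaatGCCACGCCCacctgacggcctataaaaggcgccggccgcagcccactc
Klf4: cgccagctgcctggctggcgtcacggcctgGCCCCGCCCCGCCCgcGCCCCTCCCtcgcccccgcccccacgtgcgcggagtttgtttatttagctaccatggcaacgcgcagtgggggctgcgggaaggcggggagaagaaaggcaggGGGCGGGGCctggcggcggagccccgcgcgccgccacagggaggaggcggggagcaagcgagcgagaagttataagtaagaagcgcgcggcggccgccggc

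In the Zfp42 window the capitals mark an octamer match, ATTTGCAT, 186 to 179 bases before the start, and a KLF match, GCCCCACCC, 160 to 152 bases before it. In the Tfcp2l1 window they mark a KLF match, GCCACGCCC, 48 to 40 bases before the start. The Klf4 window held 4 KLF matches, 2 of which overlap each other. Both strands were searched for 7 motifs. These were the octamer bound by POU5F1, ATGCAAAT, a SOX core, ATTGTT, a KLF site, GGGNGNGGC, an ESRRB site, AAGGTCA, a STAT site, TTCCNGGAA, a YY1 site, AAGATGGCG, and a TCF site, CTTTGAT. Windows were found for 7 of the 10 factors, 9 windows in all, and Klf5, Tbx3 and Prdm14 had no entry. The KLF letters were in 5 of the 9 windows, those of Tfcp2l1, Klf4, Zfp42 and Klf2 and 1 of Esrrb, and in 23.3% of all 32851 windows of this length. The octamer was in the Zfp42 window alone among the 9 and in 1.6% of all windows. A SOX core was in 1 Esrrb window and in 9.42% of all windows. The ESRRB, STAT, YY1 and TCF letters were in none of the 9 windows and in 4.08%, 0.913%, 0.606% and 3.21% of all windows. A match is a description of the letters in these windows.

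Values are deposited intensities on a linear scale. Over the 6 arrays, the median of all 35556 probe sets lay between 67.2 and 71.3 and the mean between 353 and 367. With 2 arrays per line, the precision is limited by their number. Lines were compared with limma on log2 of the intensity plus 1, and a gene was called different when its p, adjusted over all 19938 genes, was below 0.05. By that rule 880 genes differed between ♂M-1 and ZM-1 (42.7% of them higher in ♂M-1), 3162 between ♂M-3 and ZM-1 (54.6% higher in ♂M-3) and 1303 between ♂M-1 and ♂M-3 (49.3% higher in ♂M-1). With every array centred on its median, the share of higher calls became 62.0%, 70.9% and 47.1%. The 3 comparisons share arrays, so their values are given side by side and not as separate evidence. All 6 ES cell markers looked up, Pou5f1, Sox2 and Nanog among them, lay above the median of genes in every line. In these RNA extracts of whole cultures, fewer cells expressing a gene and less RNA per cell cannot be told apart.

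Of the 10 naive factors, 3 were called higher in ♂M-3 than in ZM-1, namely Zfp42, Prdm14 and Tfcp2l1, and 0 were called lower. Among all genes, 15.9% were called in that comparison and 8.66% were called higher. Among genes whose mean level lay above the median, where all 10 factors lie, 14.6% were called higher. Between ♂M-1 and ♂M-3, the calls were 0 higher and 3 lower in ♂M-1, for the same 3 factors, against 6.54% called and 3.32% called lower over all genes and 5.02% called lower among genes above the median level. Between ♂M-1 and ZM-1, limma called 0 of the 10, with 2 at an unadjusted p under 0.05, against 4.41% of all genes and 5.75% of those above the median level called. With the trended variance of limma, 1 was called there, Tfcp2l1. The median log2 difference of the 10 factors was 0.02 for ♂M-1 minus ZM-1, 0.14 for ♂M-3 minus ZM-1 and -0.14 for ♂M-1 minus ♂M-3. Over genes above the median level, the same medians were 0.03, 0.06 and -0.03.

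**Figure D1:**
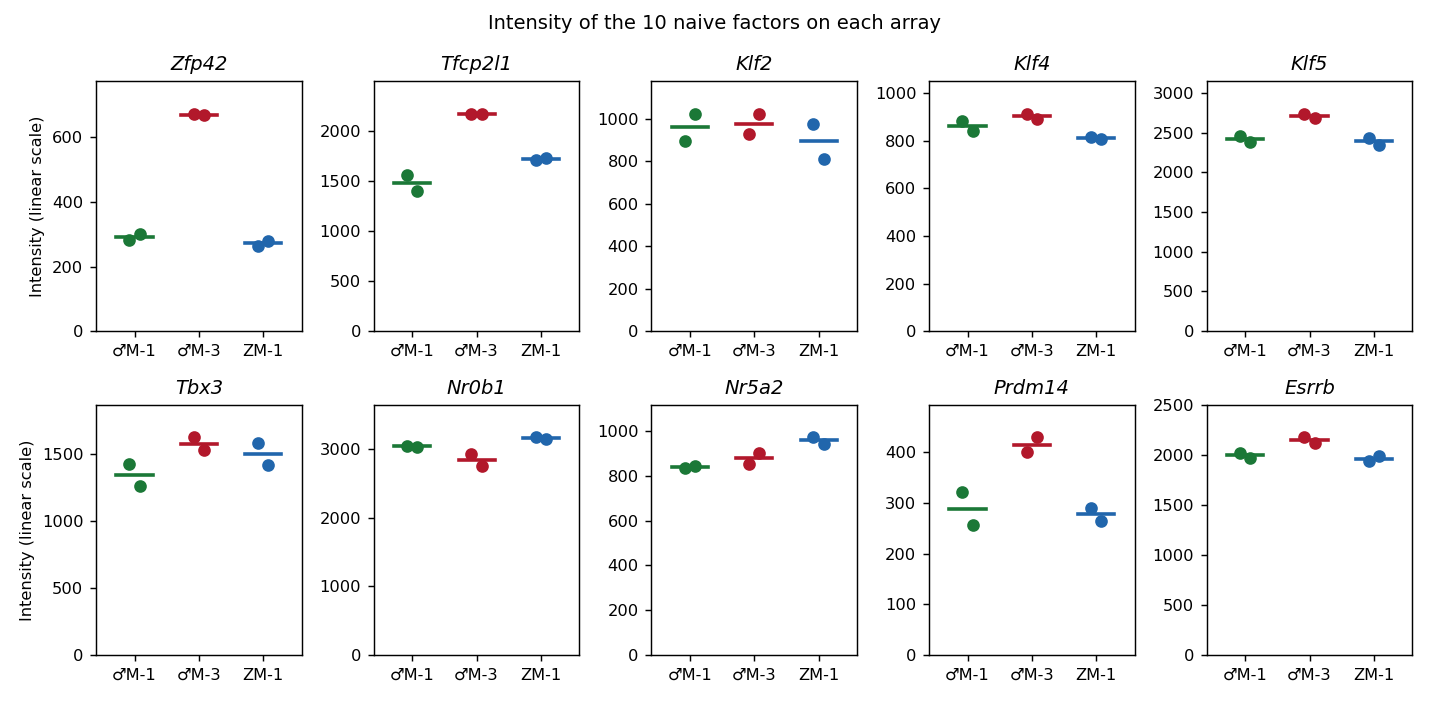
Intensity of the 10 naive factors on each array (linear axis from 0, with its own scale in each panel), 1 panel per gene, with the 2 arrays of ♂M-1, ♂M-3 and ZM-1 as points and a bar at the line mean. The ♂M-3 arrays of Zfp42, at 673 and 668, stand clear of the other 4, which lie between 263 and 299.

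Zfp42 encodes a zinc finger protein related to YY1, and it showed the widest gap between lines among the 10 factors. Its intensity was 283 and 299 in ♂M-1, 673 and 668 in ♂M-3, against 263 and 280.0 in ZM-1. The ♂M-3 arrays were high. Both ♂M-1 arrays lay just above both ZM-1 arrays, at a lower level. Zfp42 averaged 671 ± 3.77 in ♂M-3, against 272 ± 12.0 in ZM-1 (SD, n = 2 each). The difference was 1.30 ± 0.08 on the log2 scale (SE; 95% interval 1.13 to 1.48), which is 2.47-fold higher in ♂M-3, with an adjusted p of 2.40e-05. In ♂M-1 the mean was 291 ± 11.6 (SD, n = 2), 2.30-fold lower than in ♂M-3, a log2 difference of -1.20 (95% interval -1.38 to -1.03; adjusted p = 8.64e-05). ♂M-1 minus ZM-1 was 0.10 and was not called (adjusted p = 0.523). Both calls that involve ♂M-3 held under all 16 alternatives tried, with ♂M-3 minus ZM-1 between 1.25 and 1.36. The gap between the highest and lowest line was wider for Zfp42 than for 99.5% of all genes. The Zfp42 probe set moved between the 69.8th and the 87.4th percentile of the genes on an array.

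Tfcp2l1 encodes a factor of the CP2 and Grainyhead family that acts downstream of LIF and STAT3. Its intensity was 1556 and 1404 in ♂M-1, 2171 and 2167 in ♂M-3, against 1709 and 1733 in ZM-1. The 3 lines did not overlap, with ♂M-3 highest and ♂M-1 lowest. Tfcp2l1 was 1.26-fold higher in ♂M-3 than in ZM-1, a log2 difference of 0.33 ± 0.08 (SE; 95% interval 0.15 to 0.51; adjusted p = 0.0226). Tfcp2l1 was no longer called when ♂M-3 replicate 1 (adjusted p = 0.107) or 2 (0.111) or ZM-1 replicate 1 (0.0679) or 2 (0.0631) was left out, and when all probe sets were tested (0.0713). In ♂M-1 Tfcp2l1 was 1.47-fold lower than in ♂M-3, at -0.55 on the log2 scale (95% interval -0.73 to -0.37; adjusted p = 0.00458), with no call once ♂M-1 replicate 2 was left out (adjusted p = 0.0527). ♂M-1 minus ZM-1 was -0.22 (95% interval -0.40 to -0.04) and was not called (adjusted p = 0.170), though the trended variance gave an adjusted p of 0.0303. The span of its line means, 0.55 on the log2 scale, exceeded that of 94.6% of genes.

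Prdm14 encodes a protein with a PR domain and zinc fingers that represses de novo DNA methyltransferases and FGF receptors in mouse ES cells. Its intensity was 321 and 256 in ♂M-1, 401 and 429.6 in ♂M-3, against 291 and 264 in ZM-1. Both ♂M-3 arrays were above the other 4, and the ♂M-1 repeats, which differed by 25.3%, spanned both ZM-1 arrays. Prdm14 averaged 415 ± 20.3 in ♂M-3, against 277 ± 18.4 in ZM-1 (SD, n = 2 each), 1.5-fold higher in ♂M-3. The log2 difference was 0.58 ± 0.11 (SE; 95% interval 0.33 to 0.83; adjusted p = 0.00932), with no call once ♂M-3 replicate 2 was left out (adjusted p = 0.0681) or over all probe sets (0.0577). In ♂M-1 its mean of 289 ± 45.9 was 1.44-fold lower than in ♂M-3, at -0.53 on the log2 scale (95% interval -0.78 to -0.28; adjusted p = 0.0250). Prdm14 was no longer called there when ♂M-1 replicate 2 (adjusted p = 0.171) or ♂M-3 replicate 1 (0.0889) or 2 (0.156) was left out, or over all probe sets (0.139). ♂M-1 minus ZM-1 was 0.05 (adjusted p = 0.854).

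The KLF members, zinc finger activators that bind GC-rich sites and overlap in function, were not called in any comparison. Klf2 had an intensity of 898 and 1021 in ♂M-1, 929.9 and 1025 in ♂M-3, against 976 and 812 in ZM-1. The arrays of the 3 lines overlapped, and the ZM-1 repeats were the farthest apart. Klf4, a direct LIF and STAT3 target, had 882 and 841 in ♂M-1, 913 and 890.2 in ♂M-3, against 815 and 808 in ZM-1. The lines did not overlap for Klf4, in the order ♂M-3, ♂M-1, ZM-1, but ♂M-3 minus ZM-1 was 0.15 on the log2 scale with an adjusted p of 0.207. Klf5 had 2457 and 2381 in ♂M-1, 2737 and 2688 in ♂M-3, against 2433 and 2341 in ZM-1. Both ♂M-3 arrays of Klf5 were above the other 4, and ♂M-3 minus ZM-1 was 0.18 (95% interval 0.02 to 0.35; adjusted p = 0.128). With the trended variance, Klf5 was called higher in ♂M-3 than in ZM-1 (adjusted p = 0.0150) and lower in ♂M-1 than in ♂M-3 (0.0473).

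The nuclear receptors Esrrb, Nr5a2 and Nr0b1 were also not called. Esrrb, an orphan receptor freed from TCF7L1 repression by GSK3 inhibition, had 2018 and 1975 in ♂M-1, 2176 and 2124 in ♂M-3, against 1936 and 1986 in ZM-1. Its ♂M-3 arrays were above the other 4, which overlapped between ♂M-1 and ZM-1, and ♂M-3 minus ZM-1 was 0.13 (adjusted p = 0.264). Nr5a2, a receptor that can activate Pou5f1 in mouse ES cells, had 836 and 845 in ♂M-1, 854 and 903 in ♂M-3, against 971 and 943 in ZM-1. Both ZM-1 arrays were highest and both ♂M-1 arrays lowest for this gene, and ♂M-1 minus ZM-1 was -0.19 on the log2 scale (95% interval -0.36 to -0.02; adjusted p = 0.205). Nr0b1, an X-linked receptor without the usual DNA binding domain that binds POU5F1, had 3043 and 3036 in ♂M-1, 2931 and 2752 in ♂M-3, against 3170.4 and 3142 in ZM-1. Its arrays were lowest in ♂M-3, and ♂M-3 minus ZM-1 was -0.15 (adjusted p = 0.212, and 0.0387 with the trended variance).

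Tbx3 encodes a T-box factor that feeds into Nanog in mouse ES cells. Its intensity was 1429 and 1264 in ♂M-1, 1625 and 1529 in ♂M-3, against 1582 and 1416 in ZM-1. The ♂M-3 and ZM-1 arrays overlapped, and so did those of ♂M-1 and ZM-1. ♂M-1 minus ♂M-3 was -0.23 (95% interval -0.44 to -0.02; adjusted p = 0.209). For the 7 factors with no call in a comparison with ♂M-3, the 95% intervals ran from -0.32 to 0.38 for ♂M-3 minus ZM-1 and from -0.44 to 0.27 for ♂M-1 minus ♂M-3. For all 10 factors in ♂M-1 minus ZM-1 they ran from -0.40 to 0.35. Differences of that size are not excluded.

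**Figure D2:**
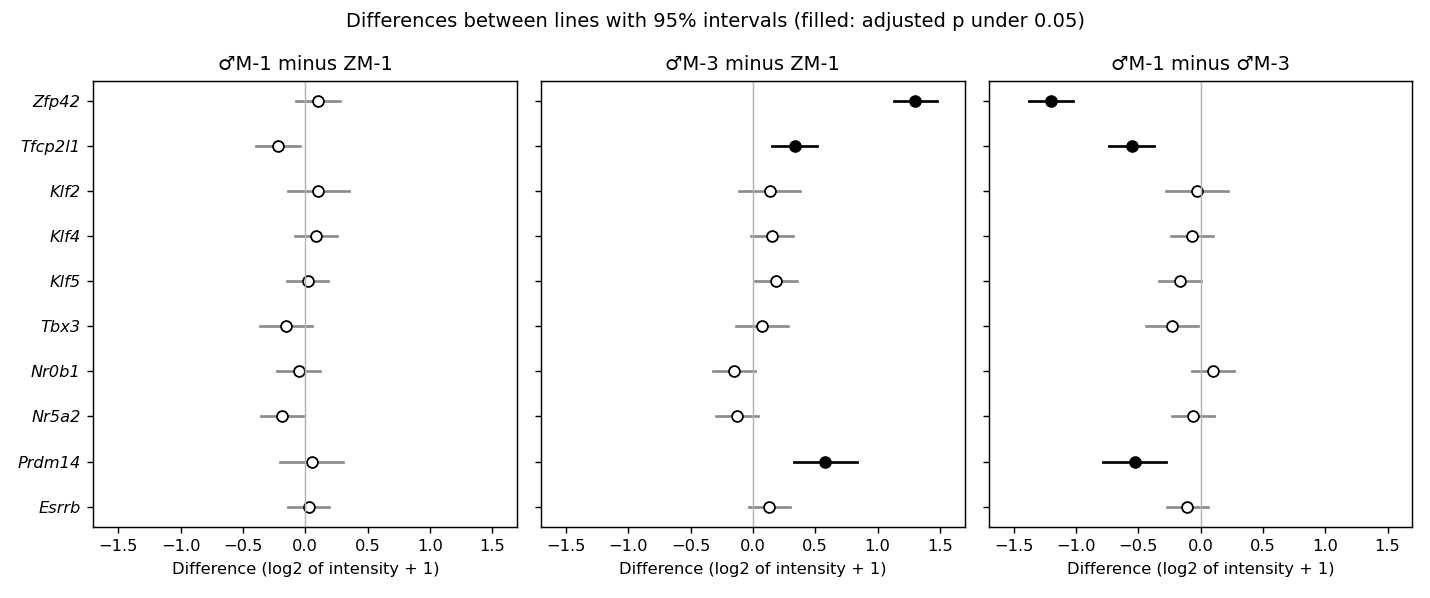
Log2 difference in intensity for each naive factor (points) with its 95% interval (bars), for the 3 pairs of lines, filled where the gene was called and open where it was not. Zfp42, at 1.30 for ♂M-3 minus ZM-1 and -1.20 for ♂M-1 minus ♂M-3, lies outside the range of the other 9 factors.

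Separation of the arrays of a pair of lines was common among all genes. The arrays of ♂M-3 and ZM-1 did not overlap for 8 of the 10 factors, 6 with ♂M-3 higher and 2 with ♂M-3 lower, against 57.5% of all genes and 69.9% of genes above the median level. Those of ♂M-1 and ♂M-3 did not overlap for 9, 8 with ♂M-1 lower and 1 with ♂M-1 higher, against 50.5% of all genes and 61.4% of those above the median level. Those of ♂M-1 and ZM-1 did not overlap for 5, 2 with ♂M-1 higher and 3 with ♂M-1 lower, against 48.9% of all genes and 55.9% of those above the median level. Both ♂M-3 arrays were above the other 4 for 6 factors, Zfp42, Tfcp2l1, Klf4, Klf5, Prdm14 and Esrrb, against 18.3% of all genes and 28.4% of genes above the median level. An F test over the 3 lines, adjusted over all genes, called Zfp42 (adjusted p = 3.22e-05), Tfcp2l1 (0.00567) and Prdm14 (0.0139), against 15% of all genes and 21.3% of those above the median level. Prdm14 was not called by that test when ♂M-3 replicate 1 (adjusted p = 0.0606) or 2 (0.109) was left out, or over all probe sets (0.0909). All 10 factors lay above the median of genes on every array, between the 69.4th and the 99.2nd percentile. Levels of different probe sets are not on a common scale and were not compared between factors.

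**Figure D3:**
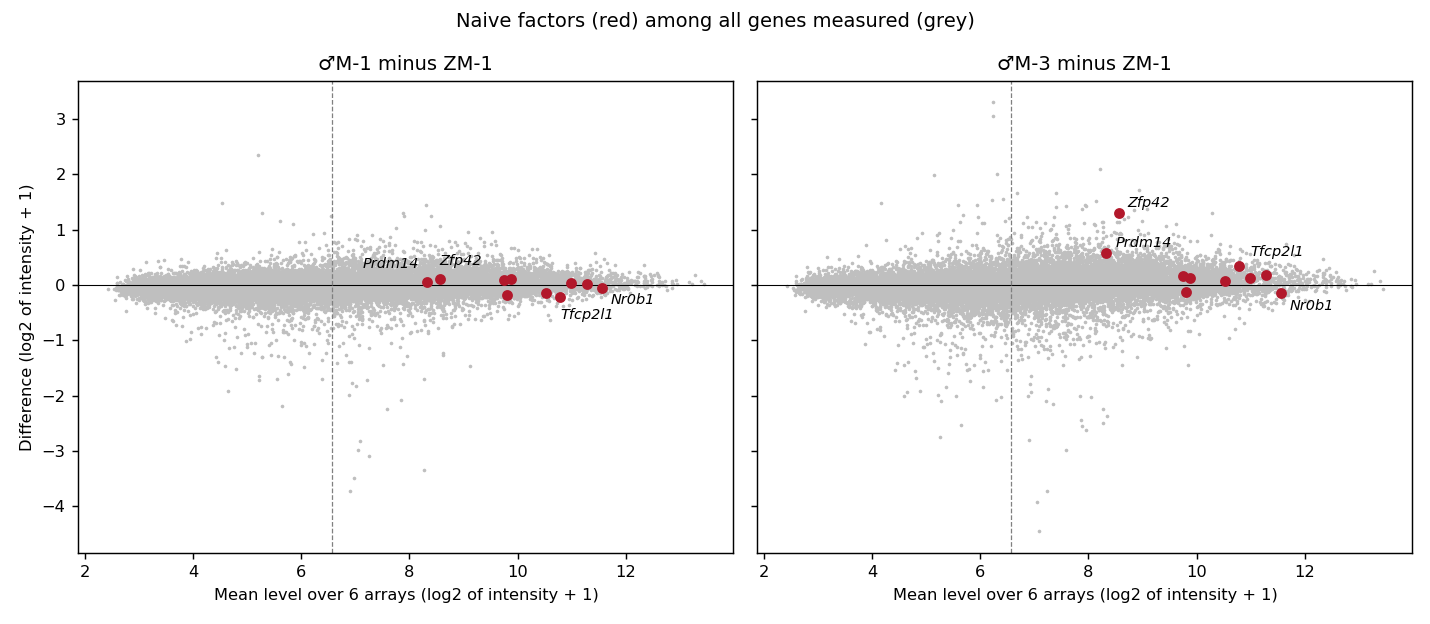
Log2 difference between lines (vertical axis) against mean log2 intensity over the 6 arrays (horizontal axis) for all 19938 genes in grey and the 10 naive factors in red, with ♂M-1 minus ZM-1 on the left and ♂M-3 minus ZM-1 on the right. The dashed line marks the median level of genes, and Zfp42 lies near the upper edge of the grey points in the right panel, at 1.30, and close to 0 in the left, at 0.10.

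Markers of other cell types followed no single direction in ♂M-3. Of 12 fibroblast markers, 9 were called lower and 0 higher in ♂M-3 than in ZM-1, with a median log2 difference of -0.50, and 8 were called higher and 0 lower in ♂M-1 than in ♂M-3, with a median of 0.55. Between ♂M-1 and ZM-1 the fibroblast markers gave 0 higher and 2 lower. Over all genes, 8.66% were called higher and 7.2% lower in ♂M-3 than in ZM-1, and 3.22% higher in ♂M-1 than in ♂M-3. Among genes above the median level, where 11 of the 12 fibroblast markers lie, these shares were 14.6%, 7.81% and 4.79%. Between ♂M-1 and ZM-1, 1.89% of all genes were called higher and 2.53% lower in ♂M-1. The summed intensity of the fibroblast markers ranged from 14130.2 to 14165 in ♂M-1, from 12935 to 13328 in ♂M-3, against 14028 to 14067 in ZM-1. Lum lay below the lower quartile of the array on all 6 arrays. Its call as lower in ♂M-3 than in ZM-1 held under 3 of the 14 alternatives in which it was tested. Dcn, a matrix proteoglycan, averaged 214 in ♂M-1, 104 in ♂M-3, against 571 in ZM-1. Of 11 primitive endoderm markers, 2 were called lower and 0 higher in ♂M-3 than in ZM-1, with Sox17, Afp and Ttr below the lower quartile on all arrays. Their summed intensity ranged from 970.0 to 999 in ♂M-1, from 801 to 836 in ♂M-3, against 997 to 1063 in ZM-1. The 7 primordial germ cell markers gave 4 higher and 1 lower in ♂M-3 than in ZM-1, and 3 higher and 0 lower in ♂M-1 set against ZM-1. Of 10 trophectoderm markers, 1 was higher and 1 lower in ♂M-3 than in ZM-1. Of the 3 measured markers of 2-cell-like cells, Tcstv3 and Usp17la lay below the lower quartile on all arrays. The part of these cell types in the differences of Zfp42, Tfcp2l1 and Prdm14 was not tested.

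The core factors on which the naive network rests differed less than Zfp42. Pou5f1 averaged 3711 ± 39.1 in ♂M-1, 3614 ± 75.04 in ♂M-3, against 3875 ± 4.67 in ZM-1 (SD, n = 2 each), and was not called in any comparison. Sox2 averaged 2916 ± 275 in ♂M-1, 2933 ± 24.6 in ♂M-3, against 2906 ± 103 in ZM-1, also with no call. Nanog averaged 3619 ± 215 in ♂M-1, 4086 ± 5.49 in ♂M-3, against 3361 ± 47.3 in ZM-1, and was called higher in ♂M-3 than in ZM-1 at 0.28 on the log2 scale (adjusted p = 0.0384). Nanog lost this call without either ♂M-3 array (adjusted p = 0.148 and 0.161), without either ZM-1 array (0.0806 and 0.120) and under quantile normalization (0.0707), all probe sets (0.0920) and the replicate block (0.0539). Among the 23 measured core and partner factors, 3 were higher and 2 lower in ♂M-3 than in ZM-1, with a median of 0.01, against 14.6% called higher and 7.81% called lower among genes above the median level. Myc, a growth regulator that LIF can raise, averaged 209 in ♂M-3, against 313 in ZM-1, a log2 difference of -0.57 (adjusted p = 0.00582) that held under all 16 alternatives. Sall1, a zinc finger partner of NANOG, was higher in ♂M-3 than in ZM-1 by 0.43 (adjusted p = 0.00682), with no call once ♂M-3 replicate 2 was left out (0.0648).

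Of the 17 measured genes of LIF, FGF and Wnt signalling, 3 were higher and 0 lower in ♂M-3 than in ZM-1, a share near the 14.6% called higher among genes above the median level. Socs3, a feedback inhibitor of JAK and STAT3 that STAT3 itself induces, averaged 491 in ♂M-1, 608 in ♂M-3, against 409 in ZM-1. ♂M-3 minus ZM-1 was 0.57 for Socs3 (adjusted p = 0.00259), a call kept under all 16 alternatives. Gsk3a and Axin2 were the other pair, at 0.37 (adjusted p = 0.0101) and 0.29 (0.0486). Gsk3a was not called when ♂M-3 replicate 1 (adjusted p = 0.0717) or 2 (0.0568) was left out, and Axin2 was not called when any single array was left out, at adjusted p between 0.0561 and 0.213. The 16 measured genes tied to the exit from the naive state all lay above the median level of genes. Of these, 4 were higher in ♂M-3 than in ZM-1, against 14.6% of all genes above that level, and 0 were lower. The largest difference was that of Fnip1, a partner of folliculin, at 0.39 (adjusted p = 0.0104), with no call once ♂M-3 replicate 1 (0.0635) or 2 (0.0670) was left out. Of 8 primed epiblast markers, 3 were lower in ♂M-3 than in ZM-1, against 7.2% of all genes, and 0 were higher. The largest was Fgf5, a growth factor of the later epiblast, with means of 63.3 in ♂M-3, against 103 in ZM-1, a log2 difference of -0.70 (adjusted p = 0.00247). These lists share genes. Otx2, Pou3f1 and Zic2 were counted both as primed markers and among the genes tied to the exit. Dnmt3b, among the 3 primed markers called lower, is counted again below among genes reported to be repressed by PRDM14.

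Genes reported to be repressed by PRDM14 in mouse ES cells were Dnmt3a, Dnmt3b and Dnmt3l, which establish DNA methylation or assist in it, and the receptors Fgfr1 and Fgfr2. In ♂M-3, where Prdm14 was highest, 3 of the 5 were lower than in ZM-1 and 0 were higher, against 7.2% of all genes called lower. Dnmt3a averaged 289 in ♂M-1, 262 in ♂M-3, against 407 in ZM-1, and was lower than in ZM-1 by 0.63 on the log2 scale in ♂M-3 (log2 difference -0.63; adjusted p = 8.49e-04), under all 16 alternatives. In ♂M-1, where Prdm14 was not called against ZM-1, Dnmt3a was also called lower (-0.49; adjusted p = 0.00773), but not once ♂M-1 replicate 1 (0.0631) or 2 (0.0544) was left out. Dnmt3b averaged 679 ± 95.9 in ♂M-1, 415 ± 18.7 in ♂M-3, against 576 ± 9.93 in ZM-1. ♂M-3 minus ZM-1 was -0.47 for Dnmt3b (adjusted p = 0.0144; 0.0914 and 0.0538 with ♂M-3 replicate 1 or 2 left out), and ♂M-1 minus ♂M-3 was 0.70 (adjusted p = 0.00457). Dnmt3l averaged 2106 in ♂M-1, 1585 in ♂M-3, against 1916 in ZM-1, and ♂M-3 minus ZM-1 was -0.28 (adjusted p = 0.0448). This last call was lost when any single array was left out, at adjusted p between 0.0657 and 0.246. Fgfr1 and Fgfr2 were not called in any comparison. Whether the level of Prdm14 had a part in any of these differences was not tested.

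Paralogs of the naive factors did not follow a single pattern. Of the 28 measured, 4 were higher and 0 lower in ♂M-1 set against ZM-1, and 7 higher and 2 lower in ♂M-3 than in ZM-1. Between ♂M-1 and ♂M-3, 2 were higher and 1 lower in ♂M-1. Over all genes, 1.89% were called higher and 2.53% lower in ♂M-1 against ZM-1, and 8.66% and 7.2% in ♂M-3 against ZM-1. In ♂M-1 against ♂M-3 the shares were 3.22% and 3.32%. Above the median level, where 19 of the 28 lie, 14.6% were called higher and 7.81% lower in ♂M-3 than in ZM-1. Klf12, a KLF repressor, averaged 657 ± 45.4 in ♂M-1, 364 ± 7.24 in ♂M-3, against 439 ± 4.44 in ZM-1. It was higher in ♂M-1 than in ♂M-3 by 0.85 on the log2 scale (adjusted p = 5.52e-04), under all 16 alternatives, and higher than in ZM-1 by 0.58 (adjusted p = 0.00485; 0.0572 with ♂M-1 replicate 2 left out). Klf15 averaged 107 in ♂M-1, 172 in ♂M-3, against 99.1 in ZM-1, with ♂M-3 minus ZM-1 at 0.78 (adjusted p = 0.00339). Klf10, induced by TGF-β in other cells, averaged 811 in ♂M-1, 944 in ♂M-3, against 625 in ZM-1, with ♂M-3 minus ZM-1 at 0.59 (adjusted p = 0.00342). Prdm1, which acts with PRDM14 in the mouse germline, averaged 141 in ♂M-1, 154 in ♂M-3, against 104 in ZM-1, with ♂M-3 minus ZM-1 at 0.56 (adjusted p = 0.00306). The calls of Klf15, Klf10 and Prdm1 in ♂M-3 against ZM-1 held under all 16 alternatives. Esrra and Esrrg, relatives of Esrrb, and Yy1, a relative of Zfp42, were not called in any comparison. Neither were Ubp1, a relative of Tfcp2l1, and Nr5a1, the relative of Nr5a2. Tfcp2, another relative of Tfcp2l1, was called higher in ♂M-3 than in ZM-1, a call kept under 7 of 16 alternatives. Klf17 and Tbx4 were the pair called lower in ♂M-3 than in ZM-1. Klf17 lay below the lower quartile of the array on all arrays. Its call held under 8 of the 14 alternatives in which it was tested, and that of Tbx4 under 10 of 15.

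For markers of naive cells that are not transcription factors, or that belong to other groups, 10 were measured. In ♂M-3 against ZM-1 they gave 3 higher and 1 lower, with a median of 0.21. Over all genes, 8.66% were called higher and 7.2% lower in that comparison. Among genes above the median level, where 9 of the 10 lie, 14.6% were called higher and 7.81% lower. Tcl1, an AKT cofactor, averaged 695 in ♂M-1, 1049.9 in ♂M-3, against 625 in ZM-1, and ♂M-3 minus ZM-1 was 0.75 (adjusted p = 0.00157). Dppa3, a maternal factor that guards DNA methylation, averaged 97.2 in ♂M-1, 117 in ♂M-3, against 66.5 in ZM-1, with ♂M-3 minus ZM-1 at 0.82 (adjusted p = 0.00438). Nodal, a TGF-β family ligand, was the one called lower, with means of 455 in ♂M-3, against 709 in ZM-1 and a log2 difference of -0.64 (adjusted p = 9.37e-04). The calls of Tcl1 and Nodal held under all 16 alternatives, and that of Dppa3 under the 15 in which it was tested.

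**Figure D4:**
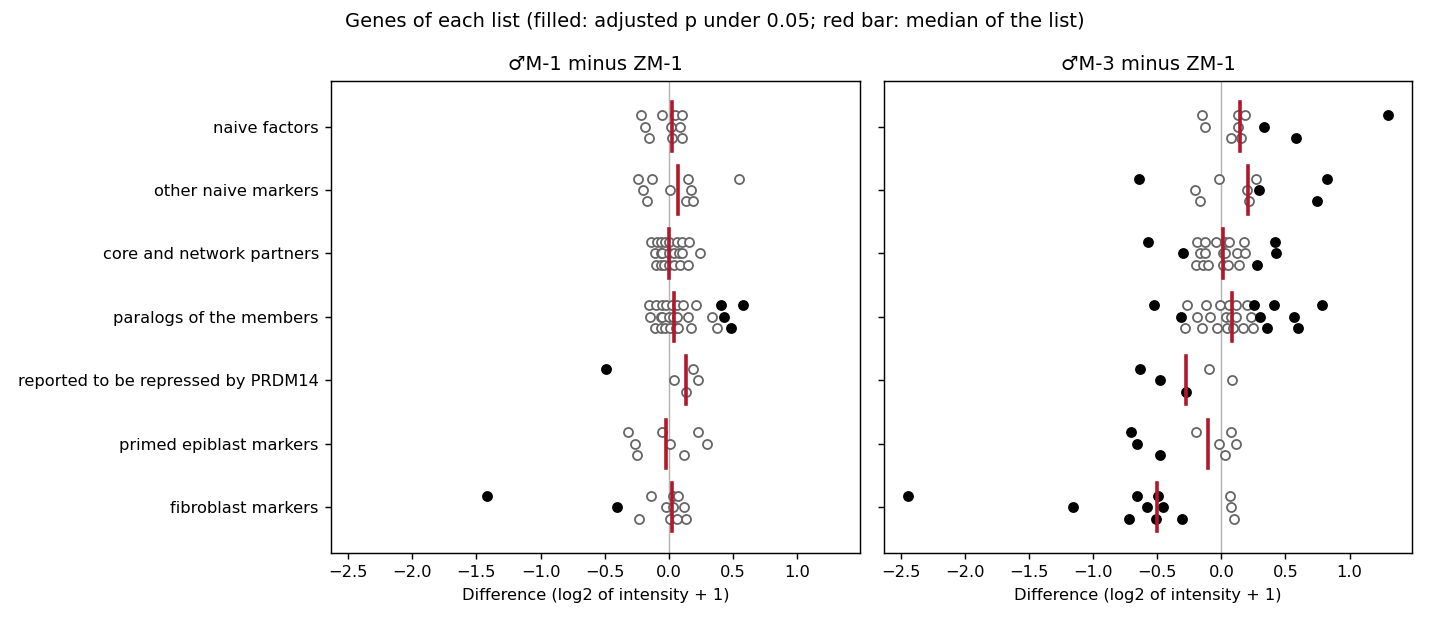
Log2 difference for each gene (points) and the median (bar) of the naive factors and of 6 related lists, with ♂M-1 minus ZM-1 on the left and ♂M-3 minus ZM-1 on the right. Filled points were called and open points were not, and the naive factors have a median of 0.02 on the left and 0.14 on the right.

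Genes with a mean level above the median and a span of line means of at least 1 on the log2 scale numbered 148. Those most like each factor called by the F test were sought by Pearson's r over the 6 arrays, which share 3 lines. For Zfp42 they were Prex2 (r = 0.996), Nnt (0.996) and Tmem64 (0.995). Prex2 averaged 49.4 in ♂M-1, 199.8 in ♂M-3, against 49.0 in ZM-1, Nnt 214 in ♂M-1, 455 in ♂M-3, against 212 in ZM-1, and Tmem64 211 in ♂M-1, 546 in ♂M-3, against 189.96 in ZM-1. For Tfcp2l1 they were Ly75 (r = 0.998), Stag3 (0.994) and Nckap1l (0.992). Ly75 averaged 199 in ♂M-1, 744 in ♂M-3, against 339 in ZM-1, the same order of lines as Tfcp2l1. For Prdm14 they were Adgrg1 (r = 0.984), Accsl (0.975) and Lama1 (0.966). Adgrg1 averaged 195 in ♂M-1, 457 in ♂M-3, against 169 in ZM-1.

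The root mean square gap between the repeats of a line, over the 10 factors, was 0.14 on the log2 scale in ♂M-1, 0.07 in ♂M-3, against 0.11 in ZM-1. Over all genes it was 0.14 in ♂M-1, 0.14 in ♂M-3, against 0.16 in ZM-1, and over genes above the median level 0.13 in ♂M-1, 0.11 in ♂M-3, against 0.13 in ZM-1. The widest gap of a factor in ♂M-1 was that of Prdm14, at 0.32. Klf2 had the widest in ♂M-3, at 0.14, and in ZM-1, at 0.27.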

How the data were processed

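Biotin-labelled RNA of the 6 samples was measured on a mouse gene array, per the labels. The authors deposited 1 linear intensity per probe set and array, and GCOS version 1.4 is named per the submitters' processing notes. How background was corrected and arrays were normalized is not given in the sources used here. No further normalization was applied. Of 35556 probe sets, 21789 carried 1 symbol, 1621 several and 12146 none in the probe table. 19938 genes were tested, 999 chosen from more than 1 probe set. RefSeq changed 0 symbols.

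The log2 of the intensity plus 1 was fitted with limma 3.58.1 in R 4.3.3, with 1 mean per line over all 6 arrays (residual degrees of freedom 3, prior 6.014). Tests were two-sided, with Benjamini-Hochberg adjustment and a threshold of 0.05. In simulated data with 19938 genes, only genes above the median level were changed, in a single line. Among the changed genes, the test recovered 92% of differences of 1 on the log2 scale and 59% of differences of 0.5. Fewer genes were changed in the simulation than were called in any comparison of the lines. These rates need not hold for the data, because the adjusted threshold depends on how many genes differ. The alternatives were another pseudocount, normalizations, filters, probe set rules, a trended variance, a replicate block, single arrays left out and the 2 compared lines alone. They overlap. Leaving out an array of the line not compared gave a pair the same fit as the 2 compared lines alone. Averaging over probe sets could not change the values of the 10 factors, each with 1 probe set.

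The members and lists were chosen with earlier results of these data known. All 10 factors and Pou5f1, Sox2 and Nanog were named whatever their test, other list genes by largest difference among those called. The paralogs named as not called and Tfcp2, Klf17, Tbx4, Fgfr1, Fgfr2 and Dcn were chosen after their values were seen.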

Additional observations from a re-analysis of the deposited data

How the results depend on the processing

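Over the 10 naive factors, 3 comparisons and 16 alternatives, 454 of 480 values kept their direction and side of the threshold, 12 lost a call, 4 gained one and 10 changed sign, 0 of the last among values called at first. Because some of the 16 alternatives repeat the same fit or cannot change a factor, this tally does not count separate checks. Testing all probe sets left 275 features called in ♂M-1 against ZM-1, 2027 in ♂M-3 against ZM-1 and 442 in ♂M-1 against ♂M-3, and 1 naive factor in ♂M-3 against ZM-1. The trended variance gave 1632 genes in ♂M-1 against ZM-1 and 1 naive factor there, and 5 naive factors in ♂M-3 against ZM-1. With single arrays left out, 234 to 631 genes were called in ♂M-1 against ZM-1, 1302 to 2750 in ♂M-3 against ZM-1 and 357 to 1495 in ♂M-1 against ♂M-3. The counts of naive factors were then 0 to 0, 1 to 3 and 1 to 3, and 2 to 3 by the F test. Counts moved by more than 1.5 times in ♂M-1 against ZM-1 without ♂M-1 replicate 1 (367) or 2 (234) or ZM-1 replicate 2 (576), in ♂M-3 against ZM-1 without ♂M-3 replicate 1 (1361), ♂M-3 replicate 2 (1302) or ZM-1 replicate 2 (2077), and in ♂M-1 against ♂M-3 without ♂M-1 replicate 1 (761) or 2 (357) or ♂M-3 replicate 1 (468) or 2 (419). The replicate numbers were not used to pair the arrays in the main fit. Same-numbered gaps correlated at 0.07, -0.10 and -0.03 over genes, which cannot show whether such arrays were handled together. With the replicate block, 686, 2769 and 1071 genes were called in the 3 comparisons, and 0, 3 and 3 naive factors, 3 by the F test. Values that changed sign were uncalled and small. In ♂M-1 minus ZM-1, quantile normalization gave -0.022 for Klf5, -0.021 for Esrrb and -0.032 for Sox2, and with single arrays left out Klf2 ranged from -0.027 to 0.24, Klf5 from -0.0084 to 0.047, Prdm14 from -0.11 to 0.21 and Sox2 from -0.094 to 0.099. In ♂M-3 minus ZM-1, quantile normalization gave -0.021 for Sox2, and with single arrays left out Tbx3 ranged from -0.0052 to 0.15 and Sox2 from -0.022 to 0.050. In ♂M-1 minus ♂M-3, Klf2 ranged from -0.12 to 0.064 and Sox2 from -0.11 to 0.085. Leaving out an array removes a degree of freedom; the causes of the other changes were not tested. Signal over background is not given in the sources used here, so no limit of detection was set.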
